A study of Rattus norvegicus with 200 samples.

Results

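Gene expression in the dark phase was compared between chow-fed rats given food in the light phase only, whose food was absent at these hours, and chow-fed rats given food in the dark phase only, whose food was present. Libraries were taken by their labelled treatment and time, and 33 of the 200 libraries of the series met the rule. The chow light-feeding group had 5 libraries at Zeitgeber time (ZT) 14, 6 at ZT18 and 6 at ZT22, and the chow dark-feeding group had 5, 6 and 5, with ZT0 being lights on. All rats were adult males of the outbred Wistar strain, labelled wild type, and the brain cells are labelled microglia, the macrophages that reside in neural tissue. The labels name no treatment or allele beyond diet and feeding schedule, and do not state how the microglia were isolated or whether each library is a rat of its own. Of 20361 genes in the count table, 14209 reached a mean of 1 CPM over the 33 libraries and were tested, CPM being counts scaled to a library of M counts and M standing for 10 to the power of 6.

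The circadian clock is a loop of transcription factors found in most mammalian cells. The proteins of Arntl (BMAL1) and Clock bind E-box sequences and switch on Per, Cry, Nr1d1, Ciart and Dbp, and the Period and Cryptochrome proteins feed back to block them. Light sets the master clock of the hypothalamus, while the time of food intake is known to reset the clocks of peripheral tissues such as the liver. Rats are nocturnal and eat mostly in the dark, so light-phase feeding separates the time of food from the natural active phase. Food intake and fasting also act on sterol and fatty acid synthesis through the SREBP transcription factors, and on glucose use through insulin.

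Library totals lay between 5.76 and 10.1 M counts with a median of 8.09 M under light-feeding (n = 17), and between 6.7 and 9.42 M with a median of 7.79 M under dark-feeding (n = 16). Of 528 pairs of libraries, 0 were identical and the closest pair gave 2.47 for chi-square over its degrees of freedom, more than sampling noise, so each library was counted once. The labelled cell type was checked per transcript length, in the authors' FPKM (fragments per kilobase of transcript and M fragments). The 20 homeostatic microglia genes of the list had a median level of 25.3 FPKM over the 33 libraries, with Cx3cr1, the fractalkine receptor, between 29.4 and 107 FPKM and P2ry12, a purine receptor, between 35.7 and 108 FPKM. The 12 myelinating oligodendrocyte markers had a median level of 255 FPKM, the 15 neuron markers 63 FPKM, the 12 cerebellar neuron markers 82.2 FPKM and the 14 astrocyte markers 12.6 FPKM. RNA of microglia was thus present, but its markers were not the most abundant of these lists. In bulk RNA a change in the number of cells of a type and a change in RNA per cell cannot be told apart.

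Some libraries stood apart before any comparison. The summed level of 70 cytosolic ribosomal protein genes was 5920, 5730 and 4920 CPM in dark-feeding replicates 1 to 3 at ZT14, against 3980 and 3130 CPM in the other 2 replicates of that group. The same 3 libraries held the highest sums of erythrocyte and neutrophil genes, 3800, 6810 and 1400 CPM, against 233 to 352 CPM in the light-feeding libraries of ZT14. Light-feeding replicate 6 at ZT18 had a ribosomal protein sum of 5540 CPM, while the other libraries of its group reached at most 3630 CPM. Dark-feeding replicates 5 and 6 at ZT18 and replicate 5 at ZT22 were low in astrocyte markers, with sums of 376, 372 and 472 CPM against 784 CPM or more in the rest of their groups, and held the lowest endothelial and homeostatic microglia sums of their groups. At ZT14 the sample numbers in the titles did not overlap between schedules, so any effect of sample order and of the schedule cannot be told apart at that time. At ZT18 and ZT22 the ranges of the numbers overlapped, but the numbers of each schedule came in separate runs. Sample order and schedule can thus be told apart only in part at those times.

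Over the 3 times together, with time as a factor in edgeR's quasi-likelihood test, 1380 of 14209 genes (9.71%) passed a Benjamini-Hochberg adjusted p of 0.05. Of these, 854 (6.01%) were higher and 526 (3.7%) lower under light-feeding, and 37 of the 1380 differed by at least 1.5-fold. The split turned to 597 higher and 913 lower when the authors' FPKM were tested with limma. The differences had the same sign at all 3 times in 1292 of the 1380 genes. Each time alone gave 2704 genes (19%) at ZT14, 0 genes (0%) at ZT18 and 391 genes (2.75%) at ZT22. In what follows, log2FC is the log2 fold change of light-feeding over dark-feeding with its standard error (SE), and group means carry the standard deviation (SD).

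Among clock genes, Per2 and Cry1 were lower under light-feeding across the dark phase, and these were the clock genes that passed over the 3 times together. Per2 encodes a Period protein of the negative limb and Cry1 a Cryptochrome, its partner in repression. A second set, Dbp, Ciart and Nr1d1, was lower under light-feeding at ZT14 and higher at ZT22. The proximal promoters of Per2, Ciart and Nr1d1 are shown because these 3 genes moved in those ways and because each holds a sequence through which clock proteins are known to act. Each run covers 250 bases before to 50 bases after the RefSeq start, on the gene's own strand and on the GRCr8 build, which is not the build of the counts. Capitals mark matches, on either strand, to the E-box CACGTG, to the related E-prime box CACGTT, or to the D-box TTANGTAA bound by DBP and its relatives.
Per2 promoter, chr9:99496944-99497243, minus strand: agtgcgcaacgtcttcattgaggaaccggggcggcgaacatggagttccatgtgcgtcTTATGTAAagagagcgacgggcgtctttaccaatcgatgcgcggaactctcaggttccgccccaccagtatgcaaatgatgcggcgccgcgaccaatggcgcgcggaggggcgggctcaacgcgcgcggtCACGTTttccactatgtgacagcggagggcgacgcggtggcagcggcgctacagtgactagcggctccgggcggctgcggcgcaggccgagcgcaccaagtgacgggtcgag
Ciart promoter, chr2:186112197-186112496, minus strand: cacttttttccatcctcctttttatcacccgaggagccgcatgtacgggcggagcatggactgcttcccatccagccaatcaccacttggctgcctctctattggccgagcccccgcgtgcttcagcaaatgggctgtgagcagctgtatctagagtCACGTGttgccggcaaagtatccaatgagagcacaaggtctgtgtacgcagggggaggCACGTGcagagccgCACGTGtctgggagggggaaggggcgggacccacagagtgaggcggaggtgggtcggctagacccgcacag
Nr1d1 promoter, chr10:84231763-84232062, minus strand: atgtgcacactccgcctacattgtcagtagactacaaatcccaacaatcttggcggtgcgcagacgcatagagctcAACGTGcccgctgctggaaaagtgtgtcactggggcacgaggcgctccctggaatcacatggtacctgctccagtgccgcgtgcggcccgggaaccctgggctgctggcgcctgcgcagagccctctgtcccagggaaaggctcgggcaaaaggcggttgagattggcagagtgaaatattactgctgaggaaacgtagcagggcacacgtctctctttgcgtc
Per2 held a D-box at base 59 and an E-prime box at base 189, counted from the left, Ciart held 3 E-boxes at bases 158, 216 and 230, and Nr1d1 held an E-prime box, read on the other strand, at base 77. Of 33469 promoter windows of this length, 6.42% held the E-box, 4.83% the E-prime box and 2.24% the D-box. Promoters were given for 17 of the 20 clock genes tested, of which 4 held the E-box (Ciart, Bhlhe40, Bhlhe41 and Tef), 3 the E-prime box (Per2, Cry2 and Nr1d1) and 1 the D-box (Per2). A match describes the letters only.

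Per2 at ZT14 measured 96.9, 176, 133, 123 and 162 CPM in the 5 light-feeding libraries, against 203, 280.0, 306, 339 and 258 CPM in the 5 dark-feeding libraries. At ZT22 it ran from 106 to 137 CPM (median 132) in 6 light-feeding libraries, against 172, 217, 255, 319.5 and 158 CPM in 5 dark-feeding libraries. Every light-feeding library lay below every dark-feeding library at both times. At ZT18 the groups overlapped, with 118 to 386 CPM (median 259.9) under light-feeding and 311 to 436 CPM (median 388) under dark-feeding (n = 6 each). The log2FC of Per2 was -1.01 at ZT14 (SE 0.17, adjusted p = 0.00569), -0.53 at ZT18 (adjusted p = 0.548) and -0.80 at ZT22 (SE 0.15, adjusted p = 0.0169), and -0.76 over the 3 times (SE 0.12, adjusted p = 0.000296). Mean Per2 at ZT14, ZT18 and ZT22 was 138, 266 and 129 CPM under light-feeding, 277, 383 and 224 CPM under dark-feeding, and 288, 297 and 230.4 CPM in chow-fed rats with food always present, which entered no test. The mean with food always present lay nearer to that of dark-feeding at ZT14 and ZT22 and nearer to that of light-feeding at ZT18.

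Cry1 followed Per2 at a lower level. It measured 19.7, 19.1, 14.4, 18.4 and 16.9 CPM under light-feeding at ZT14, against 24.6, 30.8, 30.7, 22.6 and 23.7 CPM under dark-feeding. At ZT22 it ran from 15.2 to 19.9 CPM (median 16.9) under light-feeding, against 29.9, 27.5, 26.1, 32.6 and 29.8 CPM under dark-feeding. The groups were separate at both times and overlapped at ZT18, where Cry1 ran from 13.6 to 34.6 CPM (median 25.7) under light-feeding and from 28.0 to 42.6 CPM (median 34.2) under dark-feeding. Over the 3 times the log2FC of Cry1 was -0.57 (SE 0.09, adjusted p = 0.000296). Per2 and Cry1 were called in every one of 51 alternative fits, the 33 that leave out 1 library included, with log2FC between -0.66 and -0.91 for Per2 and between -0.45 and -0.85 for Cry1.

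Dbp, an output of the clock that encodes a transcription factor acting at D-boxes, measured 34.3, 60.1, 54.1, 39.7 and 46.8 CPM under light-feeding at ZT14, against 94.0, 104, 96.0, 89.6 and 84.1 CPM under dark-feeding. At ZT22 Dbp ran from 46.9 to 59.7 CPM (median 48.3) under light-feeding, against 39.8, 32.0, 31.1, 34.1 and 34.9 CPM under dark-feeding. The groups were separate at both times and stood in opposite order. The log2FC of Dbp was -1.0 at ZT14 (SE 0.12, adjusted p = 0.0028), 0.06 at ZT18 (adjusted p = 0.882) and 0.55 at ZT22 (SE 0.09, adjusted p = 0.00777), and it differed between times (interaction of schedule and time, adjusted p = 1.88e-07). Within the dark-feeding group Dbp averaged 93.6, 54.2 and 34.4 CPM at the 3 times, and under light-feeding it averaged 47.0, 56.7 and 50.3 CPM.

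Ciart, a repressor that acts with the Period and Cryptochrome limb, and Nr1d1, which encodes the nuclear receptor REV-ERB alpha that represses Arntl, did likewise. Ciart measured 7.98, 23.3, 18.5, 12.9 and 16.7 CPM under light-feeding at ZT14, against 27.1, 31.1, 33.1, 33.7 and 24.5 CPM under dark-feeding, and at ZT22 it ran from 15.5 to 19.5 CPM (median 16.4) under light-feeding, against 8.20, 9.56, 8.61, 14.2 and 10.0 CPM under dark-feeding. The Ciart groups were again separate at both times and in opposite order. Its log2FC was -0.92 at ZT14 (SE 0.21, adjusted p = 0.0146) and 0.73 at ZT22 (SE 0.13, adjusted p = 0.0152; interaction with time, adjusted p = 0.00152). Nr1d1 measured 60.9, 97.2, 79.8, 72.8 and 83.5 CPM under light-feeding at ZT14, against 93.8, 93.9, 86.6, 103 and 117 CPM under dark-feeding, where the groups overlapped. At ZT22 Nr1d1 ran from 68.9 to 79.0 CPM (median 73.8) under light-feeding, above all of the 48.9, 48.8, 51.6, 59.8 and 58.2 CPM under dark-feeding. Its log2FC was -0.33 at ZT14 (SE 0.11, adjusted p = 0.0474) and 0.46 at ZT22 (SE 0.08, adjusted p = 0.00952). The schedule effect on Nr1d1 differed between times (interaction, adjusted p = 0.00758). Its call at ZT14 was lost in 14 of 22 alternative fits, against 3 of 22 for Dbp and for Ciart.

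**Figure D1:**
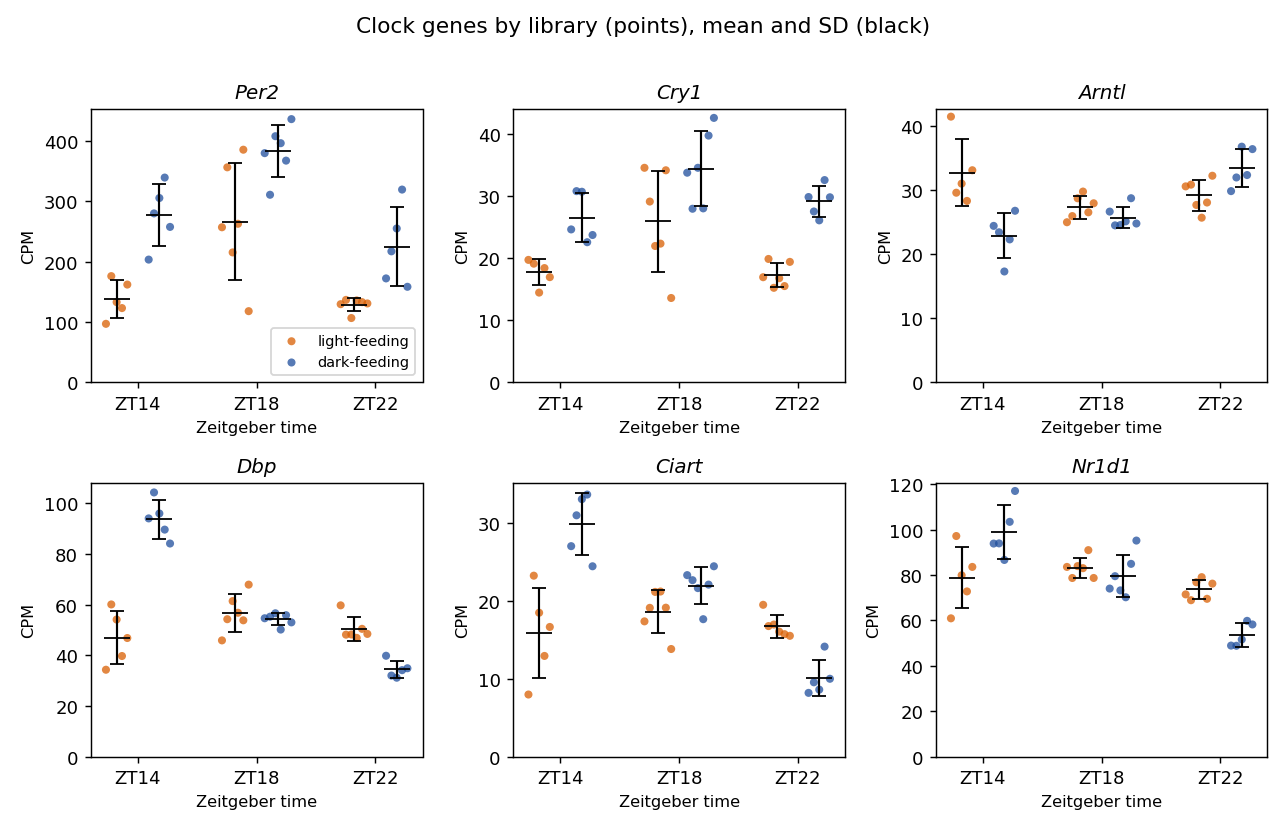
Level of 6 clock genes in CPM (vertical axes, from 0) by Zeitgeber time (horizontal axes), with 1 point per library, light-feeding left of dark-feeding at each time, and mean with SD in black. Per2 and Cry1 sit lower under light-feeding at ZT14 and ZT22, while Dbp, Ciart and Nr1d1 sit lower at ZT14 and higher at ZT22.

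The positive limb moved at ZT14. Arntl, which encodes the E-box activator BMAL1, measured 41.5, 29.6, 31.0, 28.3 and 33.1 CPM under light-feeding, against 24.4, 23.4, 17.3, 22.3 and 26.8 CPM under dark-feeding, without overlap (log2FC 0.51, SE 0.13, adjusted p = 0.0146). At ZT22 the sign was the opposite but the difference did not pass (log2FC -0.20, adjusted p = 0.22), and the schedule effect differed between times (adjusted p = 0.0104). Clock, the partner of BMAL1, was higher at ZT14 in all light-feeding libraries (log2FC 0.45, SE 0.09, adjusted p = 0.00694) and had a log2FC of -0.02 at ZT22 (interaction with time, adjusted p = 0.0234). Npas2, a relative of Clock, did not pass at any time, with a log2FC of -0.43 at ZT22 (adjusted p = 0.0516).

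The remaining clock genes passed at ZT14 or at none of the times. Bhlhe40 and Bhlhe41, which encode the DEC repressors of E-box activity, were lower under light-feeding at ZT14, with log2FC of -0.35 (adjusted p = 0.0233) and -0.32 (adjusted p = 0.0274). Hlf, a D-box factor related to Dbp, was lower at ZT14 (log2FC -0.57, adjusted p = 0.0154). Bhlhe40 lost its ZT14 call in 7 of 22 alternative fits and Bhlhe41 in 10. Hlf lost its call in 2 and its sign turned in 1. Per1 had log2FC of -0.37, -0.22 and -0.27, none past the threshold (over the 3 times, adjusted p = 0.0886). Per3 had log2FC of -0.04, 0.15 and 0.40 (at ZT22, adjusted p = 0.0582). Cry2, Nr1d2, Rora, Rorb, Tef, Nfil3 and Npas2 passed at no time. Of 8 clock repressors tested, 0 were higher and 2 lower over the 3 times, 0 and 5 at ZT14, 0 and 0 at ZT18, and 1 and 2 at ZT22. The background shares of called genes were 9.71%, 19%, 0% and 2.75% at those comparisons. The ZT14 lower count of 5 became 3 without dark-feeding replicate 2 or light-feeding replicate 1, 2 or 4.

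Because the 3 dark-feeding libraries of ZT14 stood apart, the clock was also read without them. Per2 then had a log2FC of -1.11 at ZT14 (adjusted p = 0.1), Cry1 -0.39 (adjusted p = 0.139), Dbp -0.90 (adjusted p = 0.0505), Ciart -0.88 (adjusted p = 0.279), Arntl 0.41 (adjusted p = 0.159) and Clock 0.29 (adjusted p = 0.106), with 2 dark-feeding libraries left at that time. All 6 kept their sign and lost their call at ZT14. The interaction of schedule and time was then called for 4 genes in all, among them Dbp (adjusted p = 0.000231), Nr1d1 (adjusted p = 0.0166) and Ciart (adjusted p = 0.029).

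The light-feeding over dark-feeding log2FC of Per2, -0.76 over the dark phase, was 1.52, 0.57 and 0.07 at the 3 light-phase times of the same groups, ZT02, ZT06 and ZT10. The schedule effect on Per2 in the dark phase minus that in the light phase was -1.50 on the log2 scale (SE 0.17, adjusted p = 7.66e-09), and that on Cry1 was -0.99 (SE 0.12, adjusted p = 1.57e-08). Both genes thus stood lower under light-feeding when food was absent and on average higher when it was present. Across all genes, 4540 of 14209 (32%) differed in schedule effect between the phases, 2284 (16.1%) with the higher effect in the dark phase and 2256 (15.9%) with the lower. The comparison of phases uses separate libraries of the same groups.

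**Figure D2:**
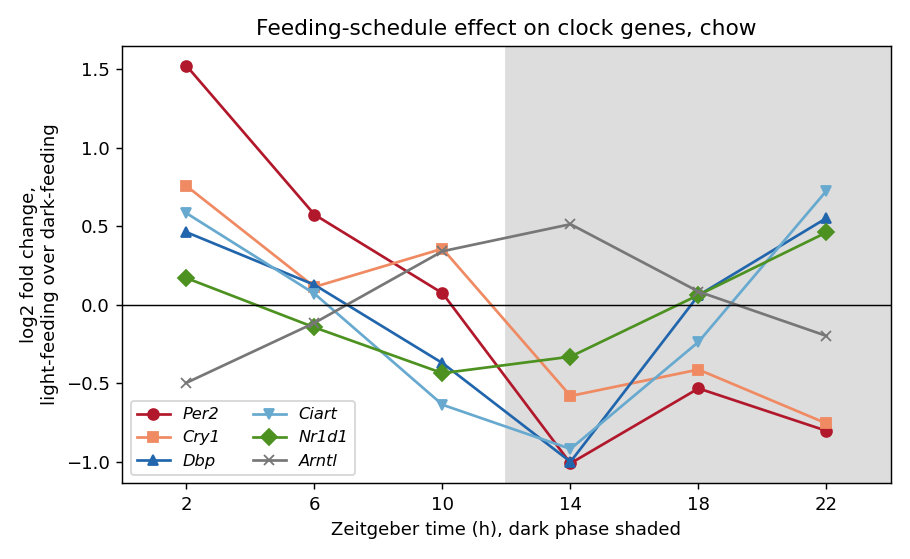
Log2 fold change of light-feeding over dark-feeding (vertical axes) for clock genes at 6 Zeitgeber times (horizontal axes), chow. Per2 runs from 1.52 at ZT02 to -1.01 at ZT14, and Dbp from 0.46 at ZT02 to -1.0 at ZT14 and 0.55 at ZT22.

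Of 23 genes of cholesterol synthesis and uptake, 11 were higher and 0 lower under light-feeding over the 3 times, where 6.01% and 3.7% of all genes tested were. The 23 genes had a median log2FC of 0.15, against -0.01 for all genes tested. Fdft1, which encodes squalene synthase, measured 147, 162, 186, 173 and 172 CPM under light-feeding at ZT14, against 159.7, 143, 133, 141 and 132 CPM under dark-feeding, with 1 light-feeding library inside the range of the dark-feeding group. At ZT18 Fdft1 ran from 154 to 176 CPM (median 159) under light-feeding, above all dark-feeding libraries at 138 to 151 CPM (median 142), and at ZT22 it ran from 143 to 182 CPM (median 174) under light-feeding, against 129.8, 162, 142, 154 and 149 CPM under dark-feeding, with overlap. The log2FC of Fdft1 was 0.24 at ZT14 (adjusted p = 0.0383), 0.17 at ZT18 (adjusted p = 0.493) and 0.20 at ZT22 (adjusted p = 0.175), and 0.20 over the 3 times (SE 0.04, adjusted p = 0.00145). Sqle, squalene epoxidase (log2FC 0.23, adjusted p = 0.0105), Cyp51, the sterol demethylase (log2FC 0.26, SE 0.06, adjusted p = 0.00485), and Srebf2, which encodes SREBP2 (log2FC 0.17, adjusted p = 0.0169), were higher too, these 3 chosen after their values were seen.

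At ZT22, 5 of the 23 cholesterol genes were higher and 0 lower, where 1.03% and 1.72% of all genes were. At ZT14 2 were higher and 0 lower, where 8.07% and 11% of all genes were, so the higher count was near the background share. The ZT22 count ran from 2 to 6 with any 1 library left out, and was 2 or 3 without dark-feeding replicate 1, 3 or 4 or light-feeding replicate 1, 4, 5 or 6. Cyp51 at ZT22 ran from 129 to 178 CPM (median 154) under light-feeding, above all of the 116, 109.6, 105, 119 and 113 CPM under dark-feeding. It had a log2FC of 0.46 at ZT22 (adjusted p = 0.0138) and -0.04 at ZT14 (adjusted p = 0.786), and the schedule effect differed between times (adjusted p = 0.0428). The count over the 3 times was 10 to 12 higher and 0 lower when any 1 library was left out, 11 and 1 without the 3 dark-feeding libraries low in astrocyte markers, 2 and 0 without ZT22, and 2 and 0 with a spline of the sample number in the model.

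Of 14 fatty acid synthesis genes, 5 were higher and 0 lower over the 3 times, where 6.01% and 3.7% of all genes were, with a median log2FC of 0.07 (-0.03 without the 3 dark-feeding libraries low in astrocyte markers, with the same counts). They were Srebf1, the transcription factor of the pathway (log2FC 0.34, adjusted p = 0.0104), Acaca and Fasn, the enzymes that build the chain (log2FC 0.24, adjusted p = 0.00313, and 0.18, adjusted p = 0.0121), and the desaturases Scd2 (log2FC 0.32, adjusted p = 0.00215) and Scd. At ZT14 alone 0 of the 14 were higher and 3 lower, where 11% of all genes were lower, led by Thrsp (log2FC -1.27, adjusted p = 0.00777), a lipogenic gene. Over the 3 times the count was 0 and 0 without ZT22 and with a spline of the sample number. Oligodendrocyte RNA, which is rich in transcripts of lipid synthesis, moved the same way, as given with the glial lists. After adding scores of astrocyte, myelinating oligodendrocyte and neuron markers to the model, 9 cholesterol genes were higher and 1 lower. The part of oligodendrocyte RNA in the lipid genes was not tested beyond that fit.

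Among 25 genes of glycolysis and its transporters, 2 were higher and 3 lower over the 3 times, where 6.01% and 3.7% of all genes were. The lower count ran from 2 to 5 (without light-feeding ZT18 replicate 6) with any 1 library left out. At ZT14 alone 1 was higher and 9 lower (median log2FC -0.35), where 8.07% and 11% of all genes were. That lower count ran from 6, without dark-feeding replicate 2, to 14 with any 1 library left out. Over the 3 times Slc16a1, the monocarboxylate transporter that carries lactate and ketone bodies, was higher (log2FC 0.29, SE 0.05, adjusted p = 0.000646). So was Slc2a1, the glucose transporter GLUT1 of the blood-brain barrier (log2FC 0.22, SE 0.06, adjusted p = 0.0201). Pfkl, the liver form of phosphofructokinase (log2FC -0.22, adjusted p = 0.00296), and Gpi (log2FC -0.16, adjusted p = 0.00892) were lower. Vldlr, a lipoprotein receptor, was higher (log2FC 0.28, adjusted p = 0.000641), with Slc7a5, a carrier of large amino acids (log2FC 0.21, adjusted p = 0.0301). These 2 were the members called among 17 targets of the amino acid stress factor ATF4. Of 19 insulin signalling and FOXO genes 0 were higher and 1 lower (Cited2, log2FC -0.24, adjusted p = 0.0259), and of 21 fatty acid oxidation genes 0 were higher and 1 lower (Hadhb, log2FC -0.16, adjusted p = 0.0218).

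Of 21 immediate early genes, which respond within minutes to activity and signals, 0 were higher and 6 lower under light-feeding over the 3 times, where 3.7% of all genes were lower. All 21 had a negative log2FC, with a median of -0.39. Arc, a synaptic gene induced by neuronal activity, measured 19.2, 18.5, 15.2, 20.7 and 14.2 CPM under light-feeding at ZT14, against 31.4, 41.5, 41.7, 14.7 and 30.5 CPM under dark-feeding, and over the 3 times its log2FC was -0.59 (SE 0.16, adjusted p = 0.0162). Dusp1, a phosphatase that ends kinase signals, was lower (log2FC -0.52, SE 0.13, adjusted p = 0.0102), as were Ier2 (log2FC -0.49, adjusted p = 0.0105), Nr4a1, an orphan nuclear receptor (log2FC -0.58, adjusted p = 0.0176), and Zfp36, which speeds the decay of cytokine transcripts (log2FC -0.27, adjusted p = 0.00529). At ZT14 0 were higher and 14 lower, where 11% of all genes were lower, with Junb at -1.04 (adjusted p = 0.00382) and Klf2 at -1.21 (adjusted p = 0.00864). Without the 3 dark-feeding ZT14 libraries that stood apart, the lower calls numbered 2 over the 3 times and 0 at ZT14. With any 1 library left out they ran from 5 to 12 over the 3 times, 11 without dark-feeding ZT14 replicate 4 or light-feeding ZT22 replicate 6 and 12 without dark-feeding ZT18 replicate 4. At ZT14 they ran from 6, without dark-feeding replicate 2, to 18, and were 9 or fewer without dark-feeding replicate 1, 2 or 3 or any light-feeding library. Spry4, an inhibitor of growth factor signals, measured 4.07, 3.02, 4.23, 4.96 and 3.88 CPM under light-feeding at ZT14, below all of the 11.9, 10.8, 8.40, 7.39 and 9.52 CPM under dark-feeding (over the 3 times, log2FC -0.76, SE 0.17, adjusted p = 0.00446).

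Of 4 cold-inducible RNA-binding genes, 2 were higher and 0 lower over the 3 times, where 6.01% of all genes were higher: Rbm3 (log2FC 0.32, SE 0.07, adjusted p = 0.00227) and Cirbp (log2FC 0.26, SE 0.06, adjusted p = 0.00434), whose transcripts are known to rise when body temperature falls. Rbm3 at ZT22 ran from 179.5 to 239.9 CPM (median 191) under light-feeding, above all of the 173, 141, 132, 120.2 and 172 CPM under dark-feeding. Of 16 cytosolic heat shock chaperone genes, 0 were higher and 3 lower, where 3.7% of all genes were lower, with a median log2FC of -0.21. They were Ahsa1, an activator of HSP90 (log2FC -0.27, adjusted p = 0.00682), Stip1, which links HSP70 to HSP90 (log2FC -0.22, adjusted p = 0.00848), and Hspa8, the constitutive HSP70 (log2FC -0.26, adjusted p = 0.0391). Stip1 at ZT22 ran from 115 to 126 CPM (median 119) under light-feeding, below all of the 158, 138, 140.5, 171 and 152 CPM under dark-feeding. The 2 cold-inducible genes were called whichever library was left out. The heat shock count ran from 2 to 7, being 5 to 7 without dark-feeding ZT14 replicate 4 or 5, dark-feeding ZT18 replicate 2 or 4, or light-feeding ZT18 replicate 1 or 6, and without ZT22 neither they nor any heat shock gene passed.

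**Figure D3:**
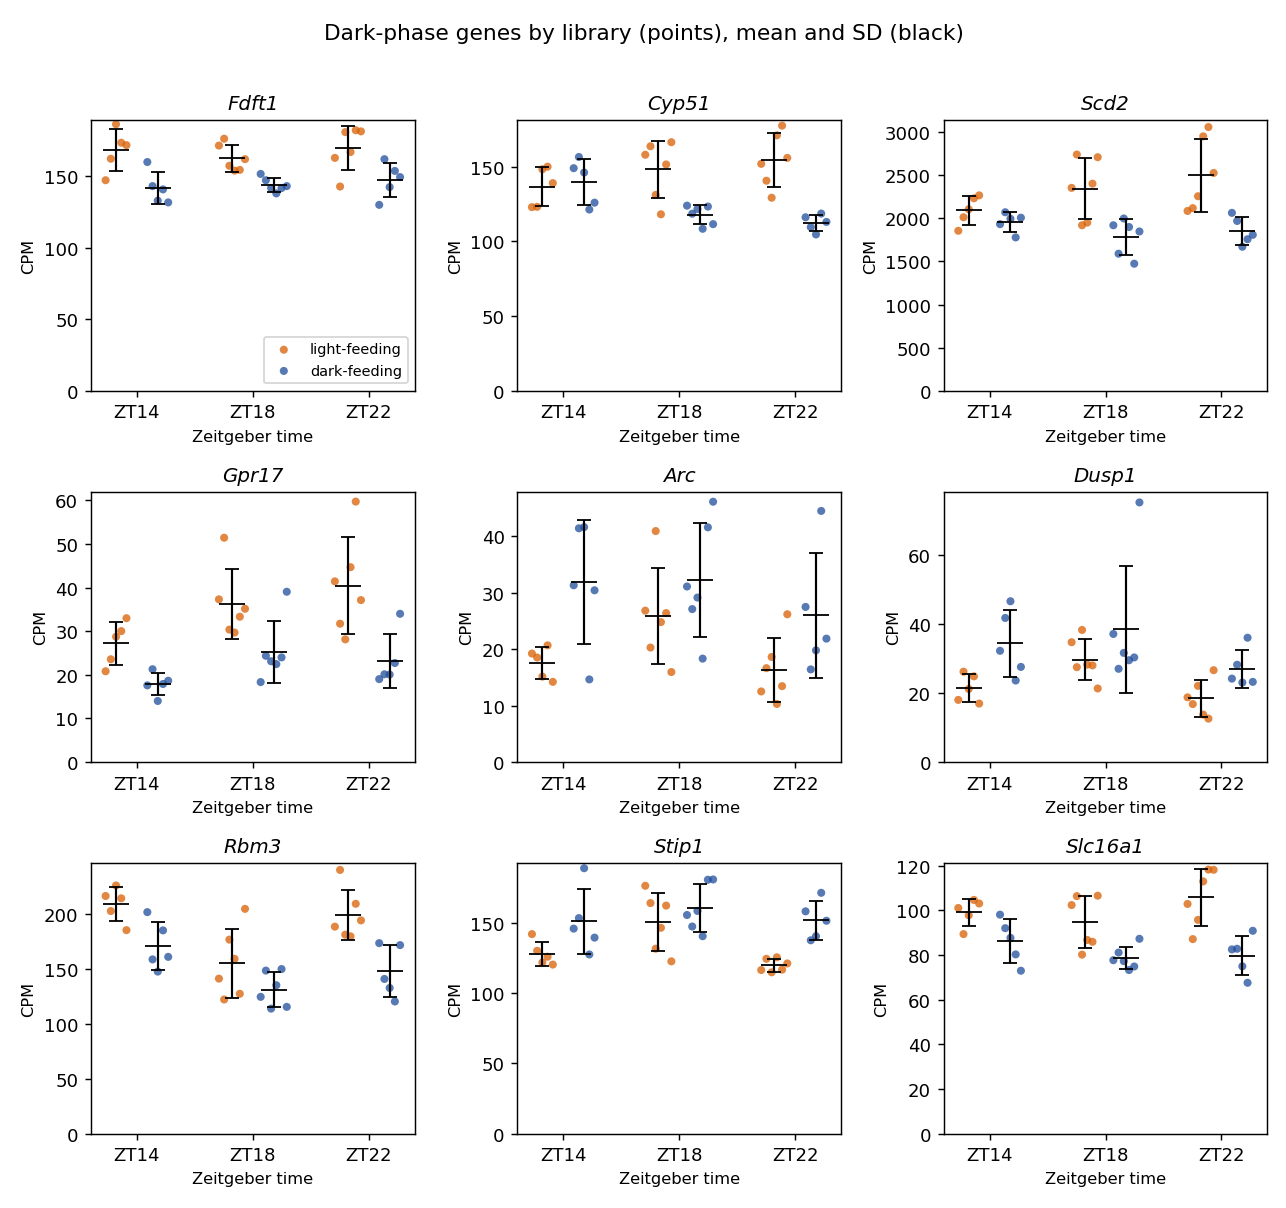
Level in CPM (vertical axes, from 0) of genes of lipid, activity, temperature and glial groups by Zeitgeber time (horizontal axes), 1 point per library, light-feeding left of dark-feeding, mean with SD in black. Fdft1 and Gpr17 sit higher and Arc lower under light-feeding on average at each time.

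Markers of the oligodendrocyte lineage were called in 1 direction. Of 10 oligodendrocyte precursor markers 5 were higher and 0 lower under light-feeding over the 3 times (median log2FC 0.25), and of 12 myelinating oligodendrocyte markers 4 and 0 (median 0.22), where 6.01% of all genes were higher. With any 1 library left out, the precursor count ran from 3, without dark-feeding ZT18 replicate 5, to 7. The myelin count ran from 2 to 6, being 2 without dark-feeding ZT18 replicate 5, dark-feeding ZT22 replicate 1 or 3, light-feeding ZT18 replicate 2, or light-feeding ZT22 replicate 4 or 5. Without the 3 dark-feeding libraries low in astrocyte markers, 5 precursor and 2 myelin markers were higher and 0 lower. Gpr17, a receptor of precursors about to differentiate, measured 20.8, 23.6, 28.7, 30.0 and 33.0 CPM under light-feeding at ZT14, against 17.6, 21.3, 14.0, 17.9 and 18.6 CPM under dark-feeding, with 1 light-feeding library inside the range of the dark-feeding group. At ZT22 Gpr17 ran from 28.1 to 59.7 CPM (median 39.3) under light-feeding, against 19.0, 20.1, 20.1, 22.7 and 34.0 CPM under dark-feeding, and over the 3 times it had one of the largest increases among named genes (log2FC 0.64, SE 0.11, adjusted p = 0.000389). Pdgfra, the growth factor receptor of precursors (log2FC 0.40, SE 0.07, adjusted p = 0.000887), Neu4 (log2FC 0.31, adjusted p = 0.00859), and the myelin genes Opalin (log2FC 0.36, adjusted p = 0.00455) and Mog (log2FC 0.26, adjusted p = 0.0316) were higher too.

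The summed precursor markers ran from 827 to 1040 CPM (median 883) under light-feeding at ZT22, against 692 to 952 CPM (median 735) under dark-feeding, and the summed myelin markers from 14300 to 20700 CPM (median 16700) against 12400 to 17100 CPM (median 12800). At ZT14 the summed myelin markers overlapped widely, 13500 to 17200 CPM under light-feeding and 13800 to 18700 CPM under dark-feeding. With scores of astrocyte, myelinating oligodendrocyte and neuron markers in the model, 4 precursor markers were higher and 0 lower, and 2 myelin markers were higher and 3 lower. The myelin markers themselves form a score, so they were set against their own mean and their split tells nothing of composition. Precursor markers had no score of their own. The part that cell composition has in the other gene groups was not tested beyond that fit.

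Genes of microglia and of inflammation gave 0 to 2 calls per list over the 3 times, where 6.01% of all genes were higher and 3.7% lower. Of 19 homeostatic microglia genes 1 was higher and 0 lower, Tgfbr1, a receptor for the TGF-beta signal that maintains microglia (log2FC 0.22, adjusted p = 0.0464). P2ry13 (log2FC 0.32, adjusted p = 0.0663) and Olfml3 (log2FC 0.35, adjusted p = 0.0698) did not pass. Of 21 disease-associated microglia genes 2 were higher and 0 lower, Gpnmb (log2FC 0.38, adjusted p = 0.00619) and Csf1 (log2FC 0.22, adjusted p = 0.0432). Of 10 complement genes C4b alone passed (log2FC -0.27, adjusted p = 0.0321), and of 22 interferon response genes Irf9 alone (log2FC -0.17, adjusted p = 0.0391). At ZT14, where 11% of all genes were lower, 0 of 21 disease-associated genes were higher and 7 lower, 0 of 10 complement genes were higher and 4 lower, and 1 of 22 interferon genes was higher and 6 lower. With 1 library left out the lower counts ran from 3 to 11 for disease-associated genes and from 1 to 15 for interferon genes, highest for both without dark-feeding replicate 5. Among 17 NF-kB and cytokine genes, 11 MHC class II genes and 6 border-associated macrophage genes 0 passed over the 3 times in edgeR's test, 0 passed by DESeq2 and 0 had an unadjusted p under 0.05. Among 13 T and NK cell markers 0 passed by either tool and 1 had an unadjusted p under 0.05.

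Other lists gave 1 or 2 calls each over the 3 times, or none, where 6.01% of all genes were higher and 3.7% lower. Of 20 autophagy and lysosome genes 2 were higher and 0 lower, among them Lamp2, a membrane protein of lysosomes (log2FC 0.23, adjusted p = 0.03). Of 18 endoplasmic reticulum chaperone genes 2 were higher and 0 lower, Sel1l, which serves the removal of misfolded proteins (log2FC 0.14, adjusted p = 0.0192), and Canx, calnexin (log2FC 0.21, adjusted p = 0.0419). Of 11 endothelial markers 2 were higher and 0 lower, Mfsd2a, a lysophospholipid carrier of the blood-brain barrier (log2FC 0.36, adjusted p = 0.00561), and Slc2a1. Of 15 glucocorticoid-induced genes 0 were higher and 1 lower (Dusp1), and of 15 neuron markers 0 were higher and 1 lower, the synaptic vesicle gene Syn1 (log2FC -0.22, adjusted p = 0.00938). Of 12 cerebellar neuron markers 1 was higher and 0 lower, the calcium channel gene Itpr1 (log2FC 0.15, adjusted p = 0.0115). Among 14 astrocyte markers, 9 meningeal fibroblast markers and 7 ependymal and choroid plexus markers 0 passed by edgeR or DESeq2 and 0 had an unadjusted p under 0.05. Of 7 mural cell markers 0 passed by edgeR, 1 by DESeq2 (Myh11) and 1 had an unadjusted p under 0.05. The summed endothelial markers at ZT22 ran from 226 to 261 CPM under light-feeding and from 136 to 238 CPM under dark-feeding, where the 136 CPM belonged to replicate 5, which was low in astrocyte markers, and the other 4 libraries lay between 178 and 238 CPM. Without the 3 dark-feeding libraries low in astrocyte markers, 1 endothelial marker was higher and 0 lower, and the median log2FC of the list was -0.07, against 0.08 with them.

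**Figure D4:**
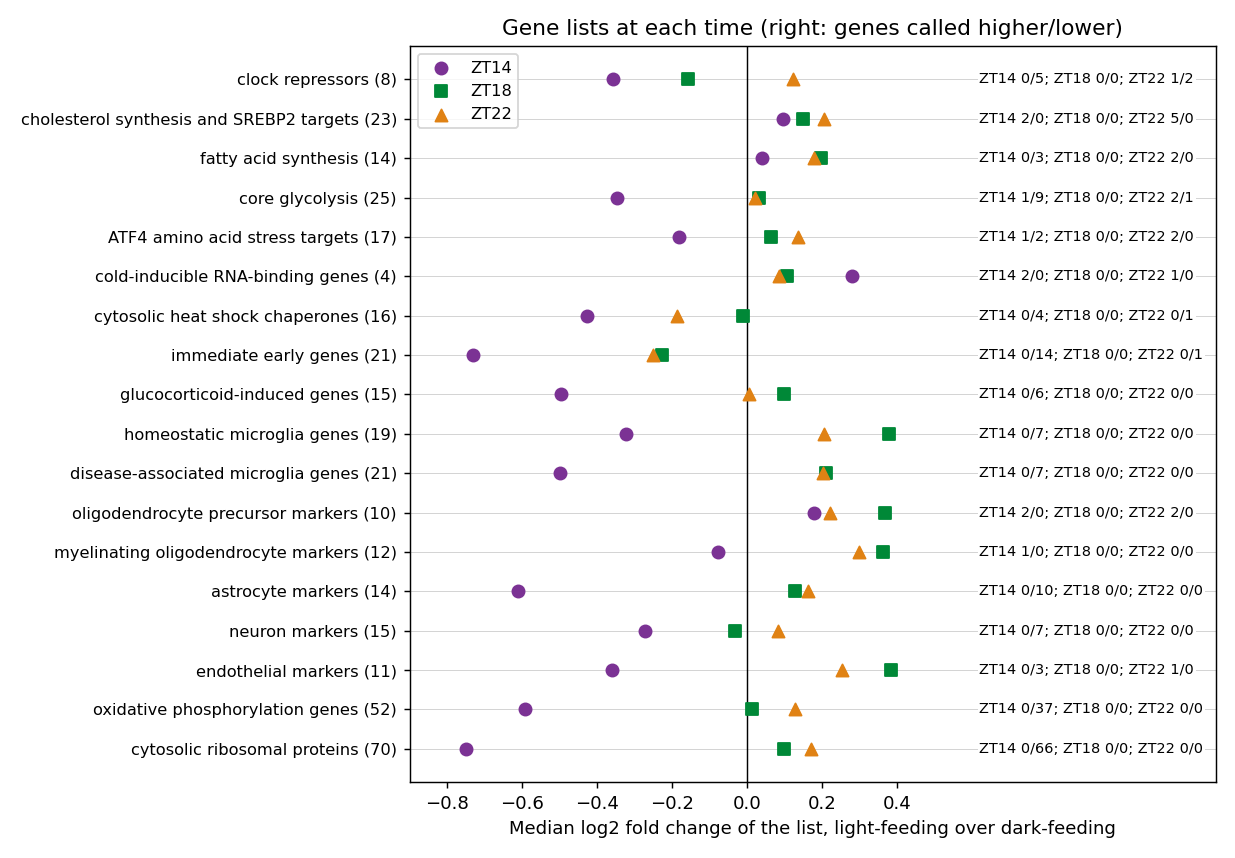
Median log2 fold change of light-feeding over dark-feeding (horizontal axis) for each gene list (rows, number of genes tested in brackets) at ZT14, ZT18 and ZT22, with counts of genes called higher and lower at the right. Ribosomal protein genes have a median of -0.75 at ZT14 and 0.10 at ZT18, and cholesterol genes lie above 0 at each time.

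ZT14 gave the most calls, 1146 higher (8.07%) and 1558 lower (11%), and 782 of the 843 genes past 1.5-fold were lower under light-feeding. In the authors' FPKM, which moved the median log2FC of all genes to -0.10, the split was 364 higher and 1854 lower. Of 70 cytosolic ribosomal protein genes 0 were higher and 66 lower (median log2FC -0.75), with Rps2 at -0.75 (adjusted p = 0.00373). Of 52 oxidative phosphorylation genes 0 were higher and 37 lower (median -0.59), led by Ndufa2, a subunit of complex I (log2FC -1.48, adjusted p = 0.00373). Without the 3 dark-feeding libraries that stood apart, 294 genes were called at ZT14, among them 4 ribosomal protein genes (median -0.31) and 1 oxidative phosphorylation gene, all lower. With a ribosomal protein score in the model 1 gene was called in all. That score largely followed the schedule at ZT14, with sums of 2510 to 3430 CPM under light-feeding and 3130 to 5920 CPM under dark-feeding. This fit thus cannot separate the schedule from the score. The tenth of genes with the shortest transcripts had a median log2FC of -0.40 at ZT14 and the tenth with the longest 0.18, against 0.08 and 0.01 at ZT22.

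The astrocyte, microglia and blood lists also held lower calls at ZT14, where 8.07% of all genes were higher and 11% lower. Other lists did too, with 6 of 9 meningeal fibroblast markers, 4 of 7 mural cell markers and 7 of 15 neuron markers lower. So were 4 of 13 T and NK cell markers, 3 of 11 endothelial markers and 6 of 15 glucocorticoid-induced genes, and 0 were higher in these 6 lists. The glucocorticoid count ran from 2 to 6 with any 1 library left out. Of 12 cerebellar neuron markers 4 were higher and 3 lower. Of 12 myelinating oligodendrocyte markers 1 was higher and 0 lower (median log2FC -0.08), and of 10 precursor markers 2 and 0 (median 0.18). Of 14 astrocyte markers 0 were higher and 10 lower, with S100b at -1.03 (adjusted p = 0.00373) and Gja1, a gap junction gene, at -0.69 (adjusted p = 0.00468). The summed astrocyte markers ran from 623 to 898 CPM under light-feeding, below the 970 to 1280 CPM under dark-feeding. Of 19 homeostatic microglia genes 0 were higher and 7 lower, with Trem2, a lipid-sensing receptor, at -0.60 (adjusted p = 0.00705), and the count ran from 2, without dark-feeding replicate 1, to 11, without dark-feeding replicate 5, with any 1 library left out. Their sums were 1870 to 2760 CPM under light-feeding and 2440 to 3740 CPM under dark-feeding. The alpha and beta globin genes had the largest falls among genes with a gene symbol and 5 CPM or more on average, with Hbb at -3.21 (adjusted p = 0.0316) and Hba1 at -3.36 (adjusted p = 0.0274), and reads of these near-identical copies are divided with uncertainty. Rps26 (log2FC -1.70, adjusted p = 0.00519) and Echs1 (log2FC -1.64, adjusted p = 0.00373), a mitochondrial enzyme of fat oxidation, followed. Senp1, a SUMO protease (log2FC 1.06, adjusted p = 0.00381), Acr (log2FC 0.96, adjusted p = 0.00466), Elmod2 (log2FC 0.89, adjusted p = 0.037), NEWGENE_1308624 (log2FC 0.82, adjusted p = 0.0381), Adamts18 (log2FC 0.75, adjusted p = 0.00373) and Tmem63c (log2FC 0.73, adjusted p = 0.0028) had the largest increases among the same genes. The ZT14 call of Hbb was lost in 12 of 22 alternative fits and its sign turned in 1, and Hba1 lost its call in 10. NEWGENE_1308624 lost its call in 13 and its sign turned in 1, and Elmod2 lost its call in 11. Rps26, Echs1, Senp1, Acr, Adamts18 and Tmem63c lost theirs in 2 or 3.

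**Figure D5:**
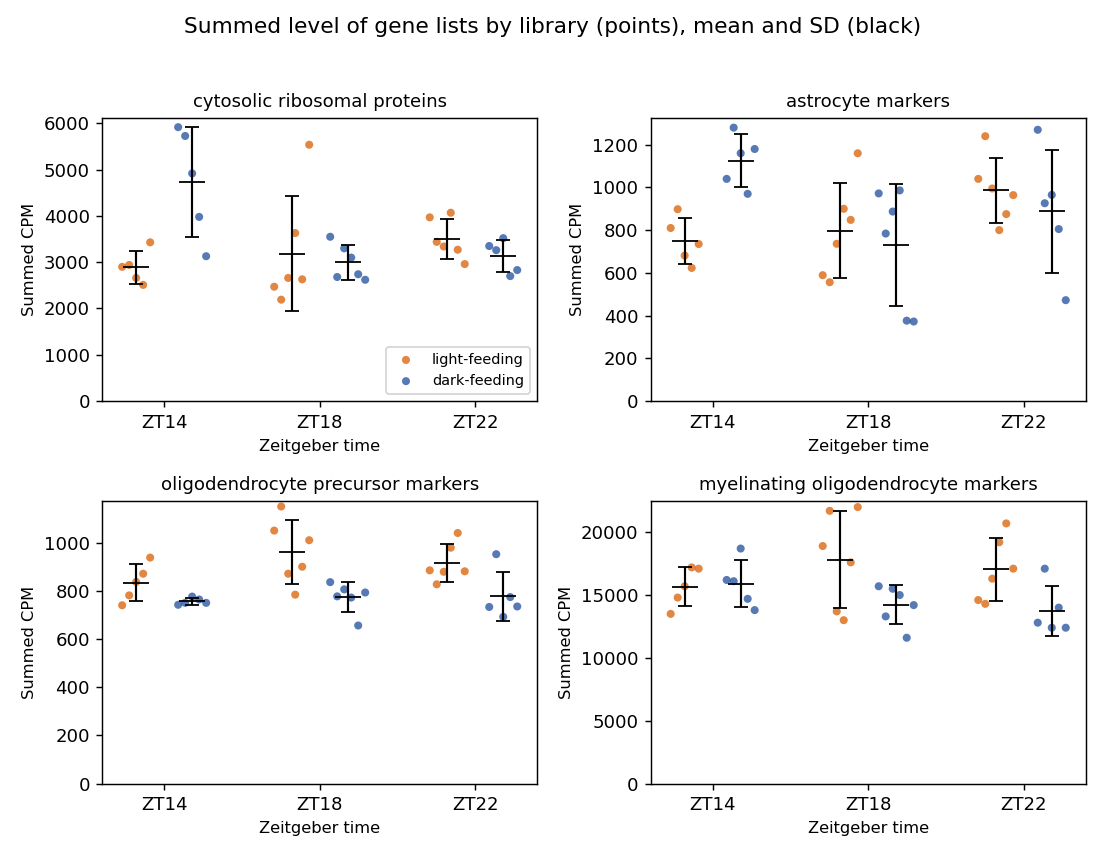
Summed CPM (vertical axes, from 0) of 4 gene lists by Zeitgeber time (horizontal axes), 1 point per library, light-feeding left of dark-feeding, mean with SD in black. At ZT14 the astrocyte sums of 623 to 898 CPM under light-feeding lie below the 970 to 1280 CPM under dark-feeding, while the oligodendrocyte sums overlap.

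At ZT18, in the middle of the dark phase, 0 of 14209 genes passed in edgeR's test (lowest adjusted p = 0.476), while DESeq2 called 18 and 1206 genes were under an unadjusted p of 0.05. The genes with the smallest p were Spock1 (log2FC 0.31), Ercc6l2 (0.43) and Sh3d19 (0.50) among positive differences, and Prmt5 (-0.31), Tmem265 (-0.39) and Pianp (-0.44) among negative ones. Light-feeding replicate 6, which had the highest ribosomal protein sum at this time, also held the lowest Per2 and Cry1 of its group, 118 and 13.6 CPM. Without it the count at ZT18 was again 0.

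At ZT22, 146 genes were higher (1.03%) and 245 lower (1.72%). Tet1, a DNA demethylase, ran from 5.42 to 10.5 CPM (median 7.49) under light-feeding, above all of the 3.37, 3.82, 4.55, 4.06 and 4.62 CPM under dark-feeding (log2FC 0.89, SE 0.18, adjusted p = 0.0162). Rpe65, the retinoid isomerase (log2FC 0.88, adjusted p = 0.0175), Cyp2j10 (log2FC 0.74, adjusted p = 0.00391) and Wfikkn2 (log2FC 0.72, adjusted p = 0.0466) were also among the largest increases with Ciart. Eomes, a transcription factor of glutamatergic neuron lineages and lymphocytes, had the largest fall above 5 CPM on average (log2FC -1.08, SE 0.25, adjusted p = 0.0421), at 6.29 to 9.38 CPM (median 7.80) under light-feeding, against 19.3, 8.92, 12.2, 28.7 and 12.1 CPM under dark-feeding. Bcl2l15 (log2FC -0.94, adjusted p = 0.0124), Dok3, an adaptor of immune receptors (log2FC -0.90, adjusted p = 0.0153), Misp (log2FC -0.89, adjusted p = 0.0374), Wdr97 (log2FC -0.85, adjusted p = 0.0138) and Serpinf2 (log2FC -0.84, adjusted p = 0.0101) were lower. The call of Eomes was lost in 15 of 23 alternative fits, that of Wfikkn2 in 14 and that of Misp in 12. Other genes named here lost theirs in 6 (Tet1) or fewer. The number of calls was 36 without dark-feeding replicate 4, 1247 without dark-feeding replicate 5 and 0 with a ribosomal protein score in the model.

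Over the 3 times together, and among genes with a gene symbol and 5 CPM or more on average, those with the largest increases besides Gpr17 and Tet1 were NEWGENE_1308624 (log2FC 0.65, adjusted p = 0.000582), Piga, which starts the synthesis of membrane anchors (log2FC 0.56, adjusted p = 0.000389), NEWGENE_1310139 (log2FC 0.54, adjusted p = 0.0423), Pex5l (log2FC 0.53, adjusted p = 0.000641), Arap2 (log2FC 0.53, adjusted p = 0.000427), Igsf9b (log2FC 0.53, adjusted p = 0.0191), Eya4 (log2FC 0.52, adjusted p = 0.00125) and Senp1 (log2FC 0.51, adjusted p = 0.00495). The call of NEWGENE_1310139 was lost in 32 of 51 alternative fits, against at most 4 (Igsf9b) for the other increases named here. Pex5l, which regulates the channels of the pacemaker current, measured 35.7, 35.9, 35.4, 47.5 and 36.5 CPM under light-feeding at ZT14, above all of the 19.9, 20.3, 24.1, 27.2 and 24.5 CPM under dark-feeding. Besides globin genes, Per2, Arc, Nr4a1 and Spry4, the largest falls among them were those of Eomes (log2FC -0.63, adjusted p = 0.0316) and Rpusd2 (log2FC -0.58, adjusted p = 0.0161). Of the 10 erythrocyte and neutrophil genes 0 were higher and 7 lower, where 6.01% and 3.7% of all genes were. Alas2, the enzyme of haem synthesis in red cells, led them (log2FC -1.49, SE 0.36, adjusted p = 0.00716), and without ZT14 0 of the 10 passed. The count was 3 without any 1 of the 5 light-feeding ZT14 libraries.

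The schedule effect differed between the 3 times for 760 genes (5.35%) by the interaction test. After Dbp and Ciart, the genes with the smallest p were Gys1, glycogen synthase (adjusted p = 0.00152), Ndufa2 (adjusted p = 0.00161), Zbtb46 (adjusted p = 0.00483) and Glt8d1 (adjusted p = 0.00652). Gys1 measured 53.7, 56.6, 55.4, 54.0 and 52.1 CPM under light-feeding at ZT14, above all of the 41.6, 43.8, 44.0, 41.0 and 50.0 CPM under dark-feeding, and at ZT22 it ran from 42.4 to 50.1 CPM (median 47.0), below all of the 63.1, 55.0, 52.3, 62.5 and 66.5 CPM under dark-feeding. Its means were 54.4, 49.1 and 46.8 CPM under light-feeding and 44.1, 57.3 and 59.9 CPM under dark-feeding, so that the order of the schedules turned over between ZT14 and ZT22. The interaction count was 100 without dark-feeding ZT14 replicate 2, 1727 without dark-feeding ZT14 replicate 5 and 4 without the 3 dark-feeding libraries that stood apart. Dbp, Ciart and Nr1d1 were called in all 47 alternative fits of the interaction.

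Of the genes called at ZT14 and at ZT22, 80 were the same genes. They were 2.96% of the ZT14 calls, where 2.75% of all genes were called at ZT22, and 20.5% of the ZT22 calls, where 19% of all genes were called at ZT14, so the overlap was near the background share. In 54 of the 80 the sign was the same and in 26 it was opposite. Among the 26, Car8, a carbonic anhydrase-related gene of Purkinje cells, had log2FC of -0.70 at ZT14 and 0.63 at ZT22, Matn2, a matrix gene, -0.63 and 0.68, and Tril, an accessory protein of Toll-like receptors, -0.40 and 0.59. Gys1 (0.30 and -0.36) and Cpt1b, a carnitine palmitoyltransferase (0.28 and -0.37), turned the other way. Car8, Matn2, Tril and Cpt1b were chosen after their values were seen.

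Between the phases of the day, the smallest p of all genes belonged to Ypel3. Its light-feeding over dark-feeding log2FC was -0.29 in the dark phase and 0.23 in the light phase (difference -0.52, SE 0.05, adjusted p = 2.49e-10). Got1, an aminotransferase that joins amino acid and carbohydrate metabolism, had -0.24 in the dark phase and 0.25 in the light phase (adjusted p = 3.88e-09). Rbm4, a splicing regulator, had -0.40 and 0.37 (adjusted p = 3.88e-09), Diexf -0.50 and 0.44 (adjusted p = 3.01e-10), and Ube2g2, a ubiquitin-conjugating enzyme, -0.37 and 0.27 (adjusted p = 1.11e-09). Tmem63c had the opposite order, 0.33 in the dark phase and -0.30 in the light phase (adjusted p = 6.8e-09). The count of genes that differed between phases was 1120 with a spline of the sample number in the model.

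The schedule effect in the dark phase was also set beside that under the high-fat diet (HFD). Per2 had a log2FC of -0.76 in chow and of -0.79 under HFD (SE 0.11, adjusted p = 1.1e-05), and Cry1 of -0.57 in chow and of -0.55 under HFD (SE 0.09, adjusted p = 6.7e-05). The chow effect minus the HFD effect was 0.01 on the log2 scale for Per2 (SE 0.16) and -0.03 for Cry1 (SE 0.13). Across genes, 0 of 14209 (0%) differed in schedule effect between diets in edgeR's test (lowest adjusted p = 0.0547), while DESeq2 called 102 and 2075 genes were under an unadjusted p of 0.05. The smallest p belonged to Ptprg (difference 0.41), Clcn5 (0.61), Tbc1d10a (-0.58), Gltscr2 (-0.29), Mgat5 (0.43) and Phka2 (0.50), none past the threshold. A difference between diets that misses the threshold does not show that the schedules acted alike.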

How the data were processed

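RNA was sequenced in bulk from 33 libraries labelled rat brain microglia, from light-feeding and dark-feeding chow groups at ZT14, ZT18 and ZT22. Per the labels' protocols, RNA was extracted on columns, mRNA enriched on beads, and strand-specific libraries sequenced on a DNBSEQ-G400. The submitters' processing notes name the build Rnor_6.0. Which aligner and counter were used is not given in the sources used here. Expected counts per gene, of which 8.03% were not whole, and FPKM, scaled by the authors for transcript length and depth, were deposited. The design had foreseen raw counts, so expected counts were rounded before every count test.

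Genes with a mean of at least 1 CPM were kept. Counts were scaled by trimmed mean of M values and tested with the robust quasi-likelihood test of edgeR 4.0.16 in R 4.3.3 (Benjamini-Hochberg adjusted p under 0.05 over all genes tested). Models held time and schedule, schedule alone at each time, or the interaction of schedule with time, with the phase of the day or with diet (66 libraries for each of the last 2). Printed CPM were scaled over the 100 chow libraries. Alternatives used DESeq2 1.42.0, limma 3.58.1 on counts and on log2(FPKM + 0.1) or log2(FPKM + 1), other filters and scalings, marker or ribosomal protein scores, a spline of the sample number with 3 degrees of freedom, and leaving out libraries or times. The edgeR tests were checked on simulated counts with a single dispersion for all genes and no shifts shared by whole libraries. That check therefore does not cover libraries that stood apart. Titles carry no replicate numbers, so replicates were numbered in accession order and not paired. As the labels do not state separate animals, p-values measure only the spread between these libraries, which may be technical.

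The comparison, the gene lists and the alternatives were chosen with earlier results of these data known. Named genes were up to 10 in each direction over the 3 times and up to 6 at each time (largest log2FC, 5 CPM or more on average, a proper symbol), up to 6 per interaction and up to 4 members per list by smallest p, and all clock genes. Some genes that these rules name are not reported here. Promoter sequences are from RefSeq (GRCr8).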

Additional observations from a re-analysis of the deposited data

Results flagged for a closer look

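Of 384 groups of libraries examined for 64 genes, 28 (7.29%) held 1 library far from the others of its group by Dixon's test, which chance alone gives in about 1 in 20. The values below are the gap of that library to its nearest neighbour over the range of its group. In the light-feeding group at ZT14 they were 0.913 for Pex5l and 0.811 for Rpusd2 (replicate 4, high), 0.772 for Zfp36 and 0.745 for NEWGENE_1308624 (replicate 5, high), 0.802 for Rora and 0.766 for Zbtb46 (replicate 5, low), 0.735 for Tef (replicate 1, low) and 0.78 for Hbb (replicate 3, high). In the light-feeding group at ZT18 they were 0.754 for Nfil3 and 0.646 for Dnajb1 (replicate 1, high), 0.649 for Gpr17 (replicate 2, high), 0.694 for Fasn (replicate 4, low) and 0.636 for Hlf (replicate 6, high).

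In the light-feeding group at ZT22 the values were 0.723 for Dbp and 0.637 for Ciart (replicate 1, high), 0.764 for Per2 (replicate 3, low), 0.63 for Srebf1 (replicate 3, high), 0.705 for Nfil3 (replicate 5, low) and 0.705 for Ier2 (replicate 6, high). In the dark-feeding group they were 0.865 for Npas2 at ZT14 (replicate 5, high), 0.791 for Dusp1 and 0.709 for Gpr17 at ZT18 (replicate 6, high), and at ZT22 0.811 for Arap2 (replicate 2, high), 0.763 for Per1 and 0.719 for Nr4a1 (replicate 4, high), and 0.874 for Tef, 0.757 for Rora and 0.754 for Gpr17 (replicate 5, high). Dark-feeding ZT22 replicate 5 was also one of the libraries low in astrocyte markers.

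The effect of the schedule differed between ZT14, ZT18 and ZT22 in the interaction test of edgeR for Dbp (adjusted p = 1.88e-07), Ciart (adjusted p = 0.00152), Gys1 (adjusted p = 0.00152), Ndufa2 (adjusted p = 0.00161), Zbtb46 (adjusted p = 0.00483), Glt8d1 (adjusted p = 0.00652), Nr1d1 (adjusted p = 0.00758), Arntl (adjusted p = 0.0104), Clock (adjusted p = 0.0234) and Bhlhe41 (adjusted p = 0.0393).

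Between the dark and the light phase the effect differed for Ypel3 (adjusted p = 2.49e-10), Diexf (adjusted p = 3.01e-10), Ube2g2 (adjusted p = 1.11e-09), Got1 (adjusted p = 3.88e-09), Rbm4 (adjusted p = 3.88e-09), Tmem63c (adjusted p = 6.8e-09), Per2 (adjusted p = 7.66e-09) and Cry1 (adjusted p = 1.57e-08). It also differed for Clock (adjusted p = 8.27e-05), Hlf (adjusted p = 0.00188), Npas2 (adjusted p = 0.0021), Per1 (adjusted p = 0.00982), Rorb (adjusted p = 0.0138), Arntl (adjusted p = 0.0267) and Nfil3 (adjusted p = 0.0285).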

How the results depend on the processing

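Counts of called genes moved with the processing, and the cause was not tested. Fits that leave out libraries or times also rest on fewer libraries. Over the 3 times, 1380 genes became 2479 with the spread estimated from all 200 libraries, 372 with a spline of the sample number, 2158 with a ribosomal protein score and 226 without ZT22, and ran from 1089 to 1655 with 1 library left out. At ZT14, 2704 became 4484 by limma-voom, 7 with marker scores, 1 with the ribosomal protein score and 294 without 3 dark-feeding libraries. The ZT14 count ran from 1176 (without light-feeding replicate 4) to 4219 (without dark-feeding replicate 5). Ribosomal protein and astrocyte levels largely followed the schedule at that time, so the fits with scores cannot separate them from it. At ZT18, 0 became 18 by DESeq2, 41 with the spread of all 200 libraries and 3 with marker scores, and stayed 0 with any library left out. At ZT22, 391 became 966 by DESeq2, 1356 by limma-voom, 1163 with the spread of all 200 libraries, 122 with marker scores, 0 with the ribosomal protein score (1874 at an unadjusted p under 0.05), and 182, 170 and 148 on FPKM with a pseudocount of 0.1, of 1 and without a filter. It was 1247 without the library low in astrocyte markers and ran from 36 to 1247 with 1 library left out. The interaction with time went to 1432 by DESeq2, 3414 by limma-voom, 485 without a filter, 335 and 273 on FPKM with and without a filter, 2361 with the spread of all 200 libraries, 4 with marker scores, 3 with the ribosomal protein score, 4 without 3 dark-feeding ZT14 libraries and 1405 without light-feeding ZT18 replicate 6, against 760, and ran from 100 to 1727 with 1 library left out. The interaction with phase went to 1120 with the spline, against 4540, and that with diet to 10 by relative log size factors and 102 by DESeq2, against 0. Higher and lower calls over the 3 times split 131 and 241 with the spline, 173 and 53 without ZT22, 494 and 566 without ZT14 and 626 and 616 without 3 dark-feeding ZT14 libraries, against 854 and 526.

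Of 1071 refits of 21 named genes over the 3 times, 976 kept their call and direction, 95 lost the call and 0 reversed. At ZT14 138 of 506 lost the call and 3 reversed: NEWGENE_1308624 (-0.11) and Hlf (0.25) with marker scores and Hbb (0.12) with the ribosomal protein score. At ZT22 80 of 368 lost the call and 0 reversed. No paired analysis was possible because the labels give no replicate numbers shared between groups.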

Other observations

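Of the 1380 genes called over the 3 times, 73 were called in every one of the 51 alternative fits, 53 higher and 20 lower under light-feeding. None of the 2704 genes of ZT14 and none of the 391 genes of ZT22 were called in every alternative of their time. At ZT22 this was fixed by the fit with a ribosomal protein score, which called 0 genes. At ZT14 that fit called 1 gene and the fit with marker scores 7. The absence of such genes at these times thus does not tell how stable single genes were. Besides Per2, Cry1 and Gpr17, the 73 included Lepr, the leptin receptor, which was chosen after its values were seen. Lepr measured 16.9, 16.2, 15.2, 16.6 and 14.7 CPM under light-feeding at ZT14, against 10.0, 7.39, 9.62, 12.1 and 12.2 CPM under dark-feeding, and at ZT22 it ran from 15.0 to 18.8 CPM (median 16.6) under light-feeding, against 11.1, 9.94, 12.4, 10.3 and 13.0 CPM under dark-feeding. The groups were separate at both times and overlapped at ZT18 (over the 3 times, log2FC 0.44, SE 0.07, adjusted p = 0.000389).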
